A study of Mus musculus with 4 samples.

Results

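The genes described here encode parts of cullin-RING ubiquitin ligases: cullins, and the kelch, BTB, F-box and ankyrin SOCS box (Asb) proteins that serve or may serve as their substrate receptors. They were chosen by name and by wild-type level. A gene symbol had to begin with Klhl, Kbtbd, Klhdc, Cul followed by a digit, Fbxo, Fbxw, Fbxl, Btbd, Spop or Asb, and its mean over the wild-type libraries had to reach 1 FPKM. FPKM is the number of sequenced fragments scaled by transcript length and library size. Of 22552 symbols 170 fitted the names and 87 also reached the level. These were 6 cullins, 20 Klhl and Kbtbd genes, 8 Btbd and Spop genes, 6 Klhdc genes, 24 Fbxo, 7 Fbxw and 7 Fbxl genes and 9 Asb genes. Just inside the limit were Klhl36, Asb5 and Fbxo42 at wild-type means of 1.0, 1.01 and 1.01 FPKM. Just outside it were Fbxw18, Asb6 and Klhl5 at 0.954, 0.936 and 0.927 FPKM. Of the 83 symbols under the limit, 16 were listed at 0 in all 4 libraries and 3 had a knockout mean of 1 FPKM or more (Asb6, Btbd6 and Fbxo46). Because the wild-type level decided which genes entered, counts and medians over them describe the set and support nothing further.

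RNA was sequenced from round spermatids, the haploid germ cells that follow meiosis, sorted by Hoechst fluorescence from testes of male mice aged 23 days. There were 2 libraries from Sox30 knockout mice, with strain labels DBA/C58/ICR and DBA/C60/ICR, and 2 from wild-type mice, with strain labels DBA/C57/ICR and DBA/C59/ICR. The middle part of these strain labels runs upward in sequence from sample to sample, so whether the strain differed between libraries is uncertain. The comparison asks which transcripts differ in level when Sox30, a transcription factor gene of the SOX family, is disrupted. The labels do not state the part of Sox30 that was removed. They also do not state that the 2 libraries of a genotype are from different mice, and p-values here reflect library-to-library spread that could be technical.

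A cullin is a scaffold that holds a RING protein and its ubiquitin-conjugating enzyme at one end and a substrate receptor at the other. Each cullin takes its own class of receptor: CUL1 holds F-box proteins through SKP1, CUL2 and CUL5 hold elongin-bound receptors, CUL3 holds BTB proteins directly, and CUL4A and CUL4B hold receptors through DDB1. Attachment of the small protein NEDD8 switches a cullin on. Spermatids dismantle much of their cytoplasm and chromatin as they mature, and KLHL10, a germ-cell BTB-kelch protein that binds CUL3, is required for male fertility in mice.

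Sox30 itself had 1.46 and 3.16 FPKM in the knockout libraries, against 11.4 and 16.2 FPKM in the wild-type libraries (limma adjusted p = 0.0219, the test of each gene on log2(FPKM + 1) with adjustment over all 9124 genes tested). The depth of the libraries is unknown, since read counts were not used here. Symbols listed at 0 numbered 9329 and 11112 in knockout libraries 1 and 2, against 6414 and 5915 in wild-type libraries 1 and 2. Of 8 round spermatid markers 7 lay lower in both knockout libraries than in both wild-type libraries, with summed levels of 834 and 488 FPKM in the knockout and 2220 and 1962 FPKM in the wild type. Catsper1 was listed at 0 in both knockout libraries. Acrv1 had 16.6 and 9.15 FPKM in the knockout and 335 and 285 FPKM in the wild type. Spaca1 had 45.8 and 31.0 FPKM in the knockout and 529 and 487 FPKM in the wild type. Spaca7 had 6.47 and 9.90 FPKM in the knockout and 402 and 312 FPKM in the wild type. These 4 passed as lower in limma, while Acr, Zpbp, Spag6 and Crem did not pass and were above 100 FPKM in all 4 libraries. The 10 spermatocyte markers summed to 650 and 514 FPKM in the knockout and 655 and 603 FPKM in the wild type. Ccna1, with 369 and 210 FPKM in the knockout and 163 and 192 FPKM in the wild type, made up much of these sums, and 8 of the 10 lay lower in both knockout libraries than in both wild-type libraries, though 0 of the 9 tested passed the test in limma (median log2 change -0.82). Summed markers of cells that the sort should remove were also lower in the knockout, with a few genes carrying most of each sum. The 9 Leydig cell markers summed to 0.0674 FPKM and a value near 0 in the knockout and to 60.4 and 37.9 FPKM in the wild type, mostly Insl3, and 7 of the 9 lay lower in both knockout libraries. The 10 blood and macrophage markers summed to 10.1 and 0.461 FPKM in the knockout and to 248 and 149 FPKM in the wild type, mostly Hba-a1, and 5 of the 10 overlapped between genotypes. The 9 spermatogonium markers summed to 7.11 and 5.80 FPKM in the knockout and to 33.6 and 37.1 FPKM in the wild type, with 7 lower in both knockout libraries and 6 listed at 0 in each. Sertoli cell markers, 8 of 9 in the tables, summed to 99.0 and 40.5 FPKM in the knockout and to 127 and 330 FPKM in the wild type, mostly Clu, with overlap in 4 of the 8. The 8 peritubular and endothelial markers summed to 2.32 and 0 FPKM in the knockout and 9.15 and 16.4 FPKM in the wild type, with overlap in 5. Among tested genes whose wild-type mean reached 1 FPKM, 40.0% lay lower in both knockout libraries than in both wild-type libraries. Some of the markers were under that level. In limma, 4 of 5 tested spermatogonium markers and 2 of 2 tested Leydig cell markers passed as lower. So did 2 of 4 tested blood and macrophage markers and 1 of 2 tested peritubular and endothelial markers. Of 3 tested Sertoli cell markers 0 passed. The part of these cells in the levels given below was not tested. In sorted bulk cells, fewer cells of a type and less RNA per cell cannot be told apart.

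The share of the wild-type level that remained in the knockout varied widely among the ligase genes. The 9 genes that fell were the SOCS box genes Asb17, Asb9, Asb15 and Asb12, the kelch gene Klhl10, the F-box genes Fbxo39, Fbxl13 and Fbxo8, and the BTB gene Btbd10. Only Klhdc9 rose. Among all 87, the knockout mean was under 1% of the wild-type mean or listed at 0 in 5 genes, from 1% to 10% in 3, from 10% to 50% in 30, from 50% to 100% in 26, and equal or higher in 23. The summed level of the 87 genes was 1448 and 951 FPKM in the knockout libraries, against 1706 and 1820 FPKM in the wild-type libraries. Without the 9 genes that fell, the sum was 1412 and 940 FPKM in the knockout and 1301 and 1440 FPKM in the wild type, so the groups then overlapped. Those 9 were picked from the same values, so closer sums follow from leaving them out and are no further result.

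Of the 87 genes 81 had a mean of 1 FPKM over the 4 libraries and were tested. The other 6, Asb5, Fbxo18, Fbxo2, Fbxw2, Kbtbd10 and Klhl36, were too low. The 9 that fell are 11.1% of the 81, beside 13.4% of all genes tested and 13.9% of those with the same wild-type level. The 1 that rose is 1.23% of the 81, beside 1.95% and 1.56% in the same backgrounds. These shares are near the background and are no result about the ligase genes as a set. Both knockout values lay below both wild-type values in 41 of the 81 (50.6%, beside 40.0% of genes tested at that wild-type level) and above them in 7 (8.64%, beside 20.8%), and the groups overlapped in 33. The median log2 change was -0.52, against -0.27 for genes at the same wild-type level and -0.23 for all genes tested.

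How many genes passed depended on the libraries used, here as over all genes. Without wild-type library 2, 0 of the 81 genes passed in limma in either direction (10 lower and 0 higher at an unadjusted p under 0.05), and neither did any of the 9124 genes, with 1412 at an unadjusted p below the threshold. Without wild-type library 1 the 4 that stayed past the threshold were Asb12, Asb15, Asb17 and Fbxo39, beside 386 lower and 0 higher over all genes. The log2 change of Asb9 was -6.04 without wild-type library 1 and -6.32 without wild-type library 2, beside -6.18 with both. Some other genes moved further. In the same order, Cul4a had -1.59 and -0.49, and Fbxw5 had -0.09 and 0.96. The median of the tested ligase genes was -0.75 and -0.49. Without knockout library 1 there were 33 lower and 1 higher, beside 3071 and 984 over all genes, and without knockout library 2 there were 19 lower and 6 higher, beside 1846 and 898. Quantile normalization, which moved the median of all genes tested to 0.17, gave 1012 genes lower and 608 higher where the unscaled fit gave 1221 and 178, and it left 8 ligase genes lower and 2 higher. With no filter on low values, Asb9, Asb15, Asb17 and Fbxo39 passed.

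**Figure D1:**
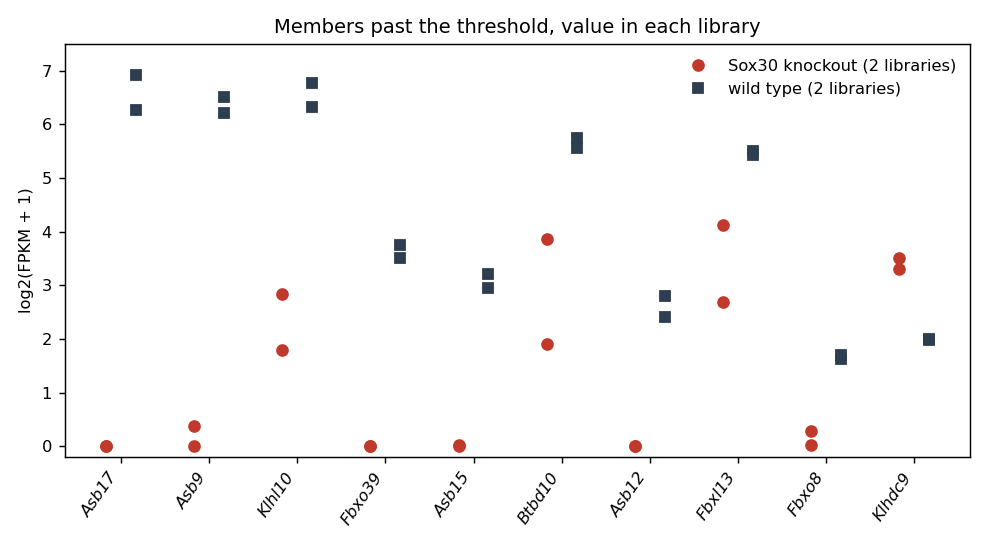
Level of the 10 ligase genes past the threshold in each library, as log2(FPKM + 1), with Sox30 knockout libraries as red circles left of wild-type libraries as dark squares. In the 9 genes that fell both knockout points lie below both wild-type points, with Asb17, Fbxo39 and Asb12 listed at 0 in both knockout libraries, and Klhdc9 alone has both knockout points above.

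The libraries of a genotype also differed from each other in these genes. Knockout library 2 was lower than knockout library 1 in 67 of the 87 genes, a share of 77%, where 61.3% of genes tested at that wild-type level had this order. In the wild type, library 1 was lower than library 2 in 70 of the 87 genes (80.5%, beside 58.7%). The number of ligase genes listed at 0 was 4 and 12 in the knockout libraries and 0 in each wild-type library. Among all 8799 genes tested at that wild-type level it was 377 and 749 in the knockout and 1 and 3 in the wild type. The wild-type level chose these genes, so the lack of zeros in the wild type follows largely from the rule.

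**Figure D2:**
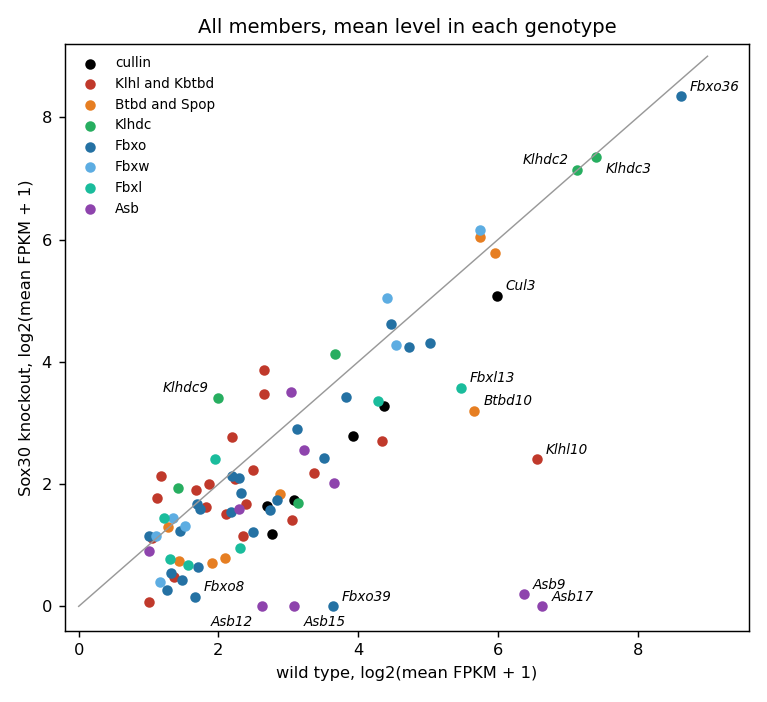
Mean level of each of the 87 genes in Sox30 knockout libraries (vertical axis) against wild-type libraries (horizontal axis), both as log2(mean FPKM + 1) over 2 libraries, coloured by family; the line marks equal levels. Klhdc2, Klhdc3 and Fbxo36 lie near the line at the top, Cul3 a little below it, and Asb9, Asb17, Asb15, Asb12 and Fbxo39 lie along the bottom.

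None of the 6 cullin scaffolds passed the test. In 5 of them both knockout values lay below both wild-type values, an order found in 40.0% of genes tested at that wild-type level. With 6 genes this is a description, and no test of the family was made. The knockout mean ran from 22% of the wild-type mean in Cul2 to 52.8% in Cul3. Cul3, the scaffold of BTB receptors and the most abundant cullin in FPKM, had 35.8 and 30.0 FPKM in the knockout libraries, against 53.8 and 70.7 FPKM in the wild-type libraries. The groups did not overlap, and the knockout kept 52.8% of the wild-type mean level (log2 change -0.89, SE 0.31, limma adjusted p = 0.117). Cul1, the scaffold of F-box receptors, had 12.4 and 5.05 FPKM in the knockout and 17.4 and 22.1 FPKM in the wild type (limma adjusted p = 0.152). Cul5, which carries the Asb receptors, had 8.22 and 3.55 FPKM in the knockout and 13.6 and 14.8 FPKM in the wild type (limma adjusted p = 0.127). Both were lower in each knockout library. Cul2, which carries elongin-bound receptors such as VHL, had 2.19 and 0.372 FPKM in the knockout and 4.10 and 7.55 FPKM in the wild type (limma adjusted p = 0.0983). Of the scaffolds that work through DDB1, Cul4b on the X chromosome had 1.13 and 3.52 FPKM in the knockout and 6.43 and 8.53 FPKM in the wild type (limma adjusted p = 0.105). Its partner in that class, Cul4a, had 3.27 and 0.990 FPKM in the knockout and 3.10 and 7.80 FPKM in the wild type, and was the only cullin whose groups overlapped (limma adjusted p = 0.264).

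The log2 changes of the cullins ran from -1.66 in Cul2 to -0.89 in Cul3, with a median of -1.21. All 6 were negative whichever scaling was used. Their median was -1.01 with median-ratio scaling, -0.73 with quantile normalization and -0.89 with a correction for transcript GC content. The wild-type limit left out Cul7 and Cul9, which were not tested. Cul9 had 0.394 and 0.988 FPKM in the knockout and 0.025 and 0.168 FPKM in the wild type. Cul7 had 0 in both knockout libraries and 0.143 and 0.112 FPKM in the wild type. Without knockout library 1, 5 of the 6 passed, and without knockout library 2 Cul4b alone passed, at a family median of -0.74.

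**Figure D3:**
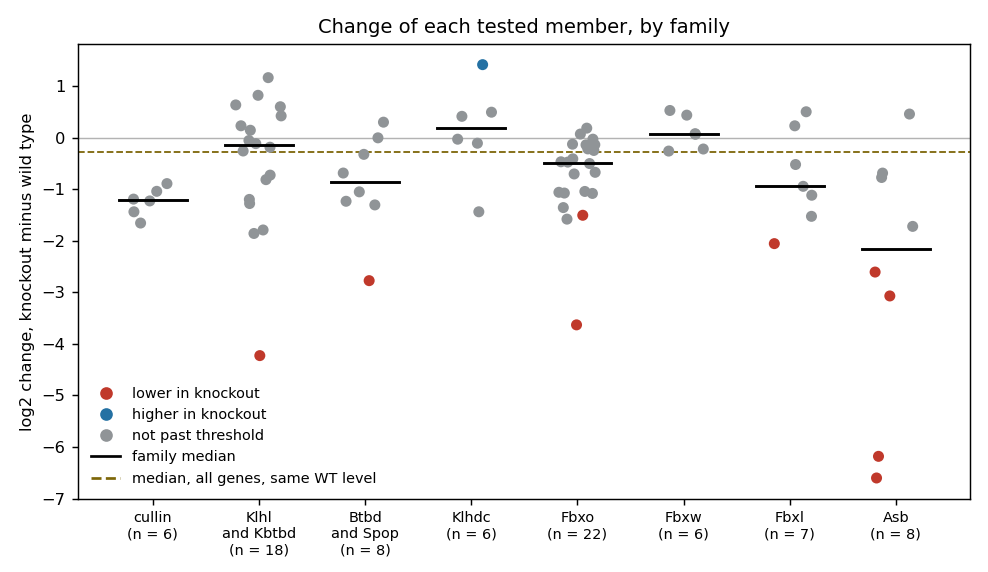
Log2 change of each of the 81 tested genes, knockout minus wild type on the log2(FPKM + 1) scale, by family, with black bars at family medians and a dashed line at -0.27, the median of genes tested at the same wild-type level. Red points fell, the blue point (Klhdc9) rose and grey points did not pass; the Asb family has the lowest median at -2.17, and the cullins span -1.66 to -0.89.

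Among the kelch receptors of CUL3, Klhl10 stood apart. Klhl10, on chromosome 11, had 6.14 and 2.46 FPKM in the knockout libraries and 78.7 and 108 FPKM in the wild-type libraries. The knockout libraries kept 4.61% of the wild-type mean, with no overlap (log2 change -4.23, SE 0.45, limma adjusted p = 0.00239). In the wild type Klhl10 was the most abundant of the 20 Klhl and Kbtbd genes and exceeded Cul3 in FPKM, while in the knockout it was under Cul3 in both libraries. Its call ended without wild-type library 1 (limma adjusted p = 0.189), without wild-type library 2 (0.228) and with no filter on low values (0.0782).

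The other 17 tested Klhl and Kbtbd genes did not pass, and they lay on both sides of 0. Kbtbd4, a kelch receptor mutated in human medulloblastoma, had 8.95 and 2.09 FPKM in the knockout and 20.7 and 17.7 FPKM in the wild type (limma adjusted p = 0.0962). Klhl7, whose human gene is mutated in retinitis pigmentosa, had 5.49 and 1.56 FPKM in the knockout and 6.49 and 12.1 FPKM in the wild type (limma adjusted p = 0.189). Klhl12, which acts on the coat of vesicles leaving the endoplasmic reticulum, had 2.96 and 0.348 FPKM in the knockout and 5.05 and 9.57 FPKM in the wild type (limma adjusted p = 0.113). All 3 had lower values in each knockout library. In the opposite direction, 3 genes picked after their values were seen had both knockout values above both wild-type values. Klhl25, a receptor for the translation repressor 4E-BP1, had 19.6 and 7.69 FPKM in the knockout and 3.35 and 7.20 FPKM in the wild type (limma adjusted p = 0.217), and it passed only after quantile normalization and without knockout library 2. Kbtbd11 had 10.2 and 9.96 FPKM in the knockout and 6.03 and 4.59 FPKM in the wild type (limma adjusted p = 0.173), and Klhl32 had 2.79 and 2.02 FPKM in the knockout and 1.05 and 1.32 FPKM in the wild type (limma adjusted p = 0.258). The family median of -0.15 had no stable sign: it was -0.0017 after median-ratio scaling, 0.42 after quantile normalization and 0.04 without wild-type library 2.

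BTB receptors without kelch repeats gave 1 call, lower in the knockout, in 8 genes, where 13.9% of genes tested at that wild-type level fell. Btbd10, a BTB protein described as an activator of the kinase AKT, had 13.6 and 2.73 FPKM in the knockout and 46.5 and 52.8 FPKM in the wild type. It fell to 16.5% of the wild-type mean (log2 change -2.77, SE 0.65, limma adjusted p = 0.0409), and on the log2 scale its knockout libraries differed from each other more than those of any other gene that fell. The call ended with a pseudocount of 0.1, with no filter, after the GC correction and without either wild-type library. Spop, a nuclear CUL3 receptor with many substrates, had 1.93 and 3.20 FPKM in the knockout and 5.08 and 7.71 FPKM in the wild type (limma adjusted p = 0.143). The 2 most abundant genes of the family overlapped between genotypes. Btbd16 had 80.4 and 28.2 FPKM in the knockout and 50.6 and 71.3 FPKM in the wild type (limma adjusted p = 0.712), and Btbd1, which binds topoisomerase I, had 71.5 and 58.0 FPKM in the knockout and 46.9 and 58.0 FPKM in the wild type (limma adjusted p = 0.537). The family median was -0.87.

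The Asb family, SOCS box receptors that join CUL5 through the elongins, held 4 of the 9 genes that fell. These were 4 of the 8 Asb genes tested, beside 13.9% of genes tested at the same wild-type level. The family is small, and no test of it was made. Asb17, expressed mainly in testis in mice and humans, was listed at 0 in both knockout libraries and had 120.3 and 76.6 FPKM in the wild-type libraries (limma adjusted p = 0.00048). Asb9, which binds creatine kinase, had 0.291 and 0 FPKM in the knockout and 90.0 and 73.6 FPKM in the wild type (log2 change -6.18, SE 0.36, limma adjusted p = 0.00048). These were the most abundant Asb genes of the wild type, on chromosomes 3 and X, and in the knockout neither reached 1 FPKM. Asb15 on chromosome 6, studied mostly in muscle, had 0.0126 and 0 FPKM in the knockout and 6.70 and 8.29 FPKM in the wild type (log2 change -3.07, SE 0.33, limma adjusted p = 0.00258). Asb12, on the X chromosome, was listed at 0 in both knockout libraries and had 5.97 and 4.33 FPKM in the wild type (limma adjusted p = 0.00458). A value of 0 in such a table can be a failed estimate, so no fold is given for genes listed at 0 in both knockout libraries.

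The remaining Asb genes did not pass. Asb8 had 4.53 and 1.58 FPKM in the knockout and 13.0 and 10.1 FPKM in the wild type, a difference that just missed the threshold (log2 change -1.72, SE 0.48, limma adjusted p = 0.0661). Asb4, known from blood vessel development in mice, had 5.83 and 3.89 FPKM in the knockout and 7.92 and 8.74 FPKM in the wild type (limma adjusted p = 0.255). Asb1, picked after its values were seen, was the only gene of these 9 Asb genes that was higher in both knockout libraries. It had 10.9 and 9.71 FPKM there, against 6.96 and 7.52 FPKM in the wild type (limma adjusted p = 0.396). Asb2, left out by the wild-type limit and not tested, was also higher in both, at 0.499 and 1.15 FPKM, against 0.0517 and 0.168 FPKM. The summed level of the 9 Asb genes was 26.3 and 16.3 FPKM in the knockout, against 256 and 194 FPKM in the wild type. The median log2 change over the 8 tested was -2.17, and -2.02, -1.75 and -2.03 after median-ratio scaling, quantile normalization and GC correction, with 4 genes lower in each. Pseudocounts of 0.1 and 5 gave medians of -3.87 and -1.04. Without wild-type library 1 there were 3 calls and without wild-type library 2 there were 0.

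To set the expression values beside the sequences in front of the genes, the following lines give the 250 bases before the RefSeq transcription start (GRCm38.p6, not the build of the expression tables, 5′ to 3′ on the gene's strand) for Klhl10, Asb17, Asb9 and Fbxo39, the 4 genes with the lowest log2 changes on the log2(FPKM + 1) scale, and, for contrast, Cul3 and the abundant F-box gene Fbxo36, which did not pass. Capitals mark ACAAT or its reverse complement ATTGT, the core that SOX proteins bind, and GTTGCC or its reverse complement GGCAAC, a part of the X box bound by RFX factors. The windows are chr11:100441674-100441923 on the plus strand for Klhl10, chr3:153843997-153844246 (plus) for Asb17, chrX:164497653-164497902 (plus) for Asb9, chr11:72314194-72314443 (plus) for Fbxo39, chr1:80340691-80340940 (minus) for Cul3 and chr1:84839591-84839840 (plus) for Fbxo36.
Klhl10: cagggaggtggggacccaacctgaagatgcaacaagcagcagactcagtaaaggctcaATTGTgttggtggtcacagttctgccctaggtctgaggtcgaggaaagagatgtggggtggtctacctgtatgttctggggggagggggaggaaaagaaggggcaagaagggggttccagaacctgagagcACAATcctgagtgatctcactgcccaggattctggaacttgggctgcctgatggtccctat
Asb17: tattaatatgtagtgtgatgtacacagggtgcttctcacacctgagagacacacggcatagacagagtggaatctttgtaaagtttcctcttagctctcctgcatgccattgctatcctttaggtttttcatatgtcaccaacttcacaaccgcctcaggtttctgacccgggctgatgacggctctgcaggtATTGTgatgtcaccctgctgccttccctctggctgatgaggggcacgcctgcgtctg
Asb9: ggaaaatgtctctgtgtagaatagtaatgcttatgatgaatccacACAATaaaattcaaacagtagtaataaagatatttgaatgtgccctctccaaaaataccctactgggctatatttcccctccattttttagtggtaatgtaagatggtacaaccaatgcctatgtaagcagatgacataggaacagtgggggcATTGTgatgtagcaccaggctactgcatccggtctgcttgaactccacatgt
Fbxo39: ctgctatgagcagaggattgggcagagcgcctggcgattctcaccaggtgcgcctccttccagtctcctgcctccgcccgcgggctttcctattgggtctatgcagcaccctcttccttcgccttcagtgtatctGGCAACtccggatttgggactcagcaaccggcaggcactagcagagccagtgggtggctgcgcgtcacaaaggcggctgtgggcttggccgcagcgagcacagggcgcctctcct
Cul3: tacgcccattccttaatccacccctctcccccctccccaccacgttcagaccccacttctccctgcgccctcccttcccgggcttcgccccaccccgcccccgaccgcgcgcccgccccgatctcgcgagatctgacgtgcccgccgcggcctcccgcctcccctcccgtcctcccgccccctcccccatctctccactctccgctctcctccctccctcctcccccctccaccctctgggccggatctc
Fbxo36: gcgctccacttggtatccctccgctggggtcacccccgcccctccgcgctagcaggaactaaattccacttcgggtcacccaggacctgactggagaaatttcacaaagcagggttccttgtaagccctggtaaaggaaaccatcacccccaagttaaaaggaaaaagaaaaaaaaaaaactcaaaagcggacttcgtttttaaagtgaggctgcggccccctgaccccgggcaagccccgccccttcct

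Counting back from -1 at the base before the start, ACAAT or ATTGT began at -192 and -61 in Klhl10, at -57 in Asb17 and at -205 and -52 in Asb9. It was not in the windows of Fbxo39, Cul3 and Fbxo36, and the Fbxo39 window held GGCAAC at -115. Over both strands the SOX core stood in 5 of 9 windows of genes that fell (55.6%), in 7 of 71 windows of genes that did not pass (9.86%) and in 27.7% of all 32851 promoter windows. GTTGCC stood in 3 of 9 (33.3%), 4 of 71 (5.63%) and 10.4%. TGACGTCA, the full cyclic AMP response element, stood in 0 of 9, 2 of 71 (2.82%) and 1.55%. Windows existed for 69 of the 87 genes, some with several starts, and ACAAT and GGCAAC can share bases, which did not happen in the windows printed above. Base composition also differed between these sets. The median GC content was 53.2% in windows of genes that fell, 61.2% in those of genes that did not pass and 52.4% over all windows. Windows of genes that fell were thus close to all windows in GC content, and apart from those of genes that did not pass. The part of GC content in the counts was not tested. A match is a run of letters and shows no binding, and its part in the levels was not tested.

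F-box genes, the receptors of CUL1, gave 3 calls, all of them lower, in 35 genes tested. Among genes tested at the same wild-type level 13.9% fell and 1.56% rose, so this count is no result about F-box genes as a set. Fbxo39, on chromosome 11, was listed at 0 in both knockout libraries and had 12.5 and 10.4 FPKM in the wild type (limma adjusted p = 0.00153). Fbxl13, on chromosome 5, is the counterpart of a subunit of the nexin-dynein regulatory complex of flagella in Chlamydomonas. It had 16.4 and 5.47 FPKM in the knockout and 42.0 and 44.3 FPKM in the wild type, or 25.3% of the wild-type mean (log2 change -2.06, SE 0.51, limma adjusted p = 0.0496). Fbxo8, on chromosome 8, whose product also has a Sec7 domain, had 0.216 and 0.0165 FPKM in the knockout and 2.08 and 2.24 FPKM in the wild type (log2 change -1.51, SE 0.31, limma adjusted p = 0.0255). In all 3 the groups were apart. Fbxl13 was past the threshold in 8 of 14 alternative settings and Fbxo8 in 7 of 13, and both calls ended without either wild-type library. Fbxo39 was past it in 13 of 14, the exception being the fit without wild-type library 2.

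The most abundant F-box gene, and the most abundant of all 87 in FPKM, was Fbxo36. It had 332 and 318 FPKM in the knockout and 456 and 328 FPKM in the wild type, and knockout library 1 overlapped the wild-type range (log2 change -0.25, SE 0.29, limma adjusted p = 0.590). Fbxo30 had 19.5 and 18.1 FPKM in the knockout and 26.3 and 37.1 FPKM in the wild type (limma adjusted p = 0.204). Fbxo44 had 17.5 and 18.5 FPKM in the knockout and 25.5 and 25.3 FPKM in the wild type (limma adjusted p = 0.327). Both were lower in each knockout library without passing. Fbxo6, whose protein recognizes sugar chains on misfolded glycoproteins, had 31.9 and 15.0 FPKM in the knockout and 23.8 and 18.4 FPKM in the wild type (limma adjusted p = 0.931). The 22 tested Fbxo genes had a median log2 change of -0.49, with 20 of them below 0 in the unscaled fit and 13 after quantile normalization.

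Leucine-rich Fbxl genes other than Fbxl13 did not pass. Fbxl5, an iron sensor that degrades iron regulatory proteins, had 14.4 and 4.16 FPKM in the knockout and 17.2 and 19.6 FPKM in the wild type (limma adjusted p = 0.235). Fbxl15 had 1.86 and 0 FPKM in the knockout and 3.18 and 4.69 FPKM in the wild type (limma adjusted p = 0.133), and Fbxl12 had 4.75 and 3.93 FPKM in the knockout and 2.01 and 3.71 FPKM in the wild type (limma adjusted p = 0.429). Fbxl5 and Fbxl15 were lower in each knockout library, and Fbxl12 was higher in each. Fbxw genes, which read substrates with WD repeats, overlapped in all 6 tested, as did 3443 of the 8799 genes tested at that wild-type level. Fbxw2, too low to be tested, was lower in each knockout library, at 0.486 and 0.142 FPKM, against 0.785 and 1.69 FPKM in the wild type. Fbxw5 had 94.4 and 46.8 FPKM in the knockout and 33.7 and 71.0 FPKM in the wild type (limma adjusted p = 0.593). Fbxw9 had 45.5 and 18.2 FPKM in the knockout and 15.5 and 25.1 FPKM in the wild type (limma adjusted p = 0.525). Fbxw10 had 24.0 and 12.6 FPKM in the knockout and 15.0 and 29.6 FPKM in the wild type (limma adjusted p = 0.746). In each of these the higher knockout library was library 1 and the higher wild-type library was library 2. Fbxw7, the receptor for cyclin E, had 1.0 and 1.99 FPKM in the knockout and 1.62 and 2.11 FPKM in the wild type (limma adjusted p = 0.717). The Fbxw median of 0.07 turned to -0.0023 after the GC correction, to -0.09 without knockout library 1 and to -0.18 without wild-type library 1, and it was 0.62 after quantile normalization.

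Klhdc genes encode kelch proteins without a BTB domain, several of which join CUL2 or CUL5 and read the carboxyl end of proteins. Klhdc9, on chromosome 1, was the gene that rose, with 8.94 and 10.3 FPKM in the knockout and 3.01 and 2.97 FPKM in the wild type. Its groups were far apart and each was tight, and the knockout mean was 323% of the wild-type mean (log2 change 1.41, SE 0.34, limma adjusted p = 0.0455). The call ended with a pseudocount of 0.1, with no filter, after the GC correction and without either wild-type library. An exon of Klhdc9 overlaps Pfdn2 on the opposite strand, and strand-specific counting is not stated, so reads of the pair cannot be told apart. Klhdc3 had 223 and 103 FPKM in the knockout and 128 and 211 FPKM in the wild type (limma adjusted p = 0.896), and Klhdc2 had 171 and 109 FPKM in the knockout and 147 and 133 FPKM in the wild type (limma adjusted p = 0.958). Both are CUL2 receptors in human cells, and both overlapped between genotypes. They too share exonic positions with a gene on the other strand, Mea1 for Klhdc3 and Nemf for Klhdc2, and Mea1 reached 2173 FPKM in knockout library 1. Klhdc10, another CUL2 receptor, had 17.3 and 15.8 FPKM in the knockout and 9.53 and 13.8 FPKM in the wild type (limma adjusted p = 0.379). Klhdc1, a CUL5 receptor, had 1.85 and 2.61 FPKM in the knockout and 6.59 and 8.99 FPKM in the wild type, close to the threshold (log2 change -1.44, SE 0.37, limma adjusted p = 0.0551). The family median of 0.19 became -0.33 without knockout library 1.

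Annotated exons of 31 of the 87 genes overlap another gene. Among the genes that fell these were Asb17, which has an antisense transcript in the annotation that was not analysed here, and Fbxl13, which overlaps Lrrc17. Of the others named above, Kbtbd4 overlaps Ndufs3 and Ptpmt1, Fbxl12 overlaps Ubl5 and Fbxl15 overlaps Cuedc2. Fbxl5 overlaps Bst1, Asb5 overlaps Spcs3, and Fbxw10 overlaps Trim16 on the same strand. Cul1, Cul5, Fbxw9, Kbtbd11, Klhl32 and Klhdc1 also overlap another annotated gene. Transcript GC content moved with direction: its median was 45.0% in the genes that fell, 48.2% in those that did not pass and 54.9% in the 7 with both knockout values above both wild-type values. Over all genes tested it was 47.2% in those that fell, 54.7% in those that rose and 49.1% in all. With each library corrected on GC content, Btbd10, Fbxl13, Fbxo8 and Klhdc9 lost their calls, 6 of the 10 calls were kept, and Btbd9 and Fbxl15 passed as lower. The X chromosome holds 4 of the 87 genes (Asb9, Asb12, Cul4b and Klhl15). By calls, Asb9 and Asb12 fell and Cul4b and Klhl15 did not pass, beside 126 that fell of all 309 X-linked genes tested. In all 4 both knockout values lay below both wild-type values, an order found in 40.0% of genes tested at that wild-type level. How often X-linked genes had this order was not counted.

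**Figure D4:**
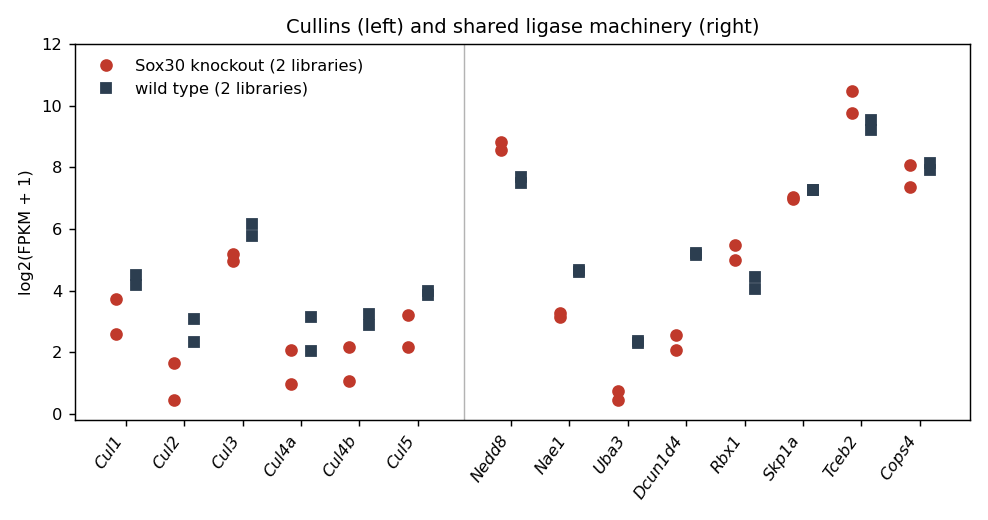
Level in each library as log2(FPKM + 1) of the 6 cullins (left) and of 8 genes of the shared machinery (right), Sox30 knockout as red circles and wild type as dark squares. Cul4a is the only cullin whose groups overlap; Nedd8 lies higher in both knockout libraries, and Nae1, Uba3 and Dcun1d4 lie lower in both.

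The proteins that serve every cullin were mostly not past the threshold. Of 37 genes listed for RING partners, adaptors, NEDD8 attachment and removal and cullin exchange, 36 were in the tables, 33 were tested, 3 fell and 1 rose, with a median of -0.30. So few calls in 33 genes are near the background of 13.4% lower and 1.95% higher over all genes tested. Nedd8, the modifier itself, rose, with 376 and 456 FPKM in the knockout, against 204 and 179 FPKM in the wild type (log2 change 1.11, SE 0.27, limma adjusted p = 0.0465). All 4 act in NEDD8 attachment, but this theme was picked after their values were seen, and Ube2m, Ube2f, Dcun1d1, Dcun1d3 and Dcun1d5, which act there too, did not pass. Nae1 and Uba3 encode the subunits of the enzyme that activates NEDD8, and both fell. Nae1 had 8.68 and 7.92 FPKM in the knockout and 24.7 and 23.6 FPKM in the wild type (log2 change -1.44, SE 0.31, limma adjusted p = 0.0322). Uba3 had 0.684 and 0.377 FPKM in the knockout and 4.0 and 4.21 FPKM in the wild type (log2 change -1.74, SE 0.33, limma adjusted p = 0.0201). Dcun1d4, which helps to transfer NEDD8 to cullins, fell to 4.91 and 3.23 FPKM in the knockout, against 36.0 and 34.5 FPKM in the wild type (log2 change -2.86, SE 0.35, limma adjusted p = 0.00376). In these 4 genes the libraries of a genotype lay close together and the groups were apart. The calls of Nedd8, Nae1 and Uba3 ended after the GC correction (limma adjusted p = 0.147, 0.103 and 0.056), and all 4 ended without either wild-type library. Those of Nedd8 and Uba3 also ended with no filter on low values, those of Nedd8 and Nae1 with median-ratio scaling, those of Nae1 and Uba3 after quantile normalization, and that of Nedd8 with a pseudocount of 0.1 and with no mean-variance trend.

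The adaptors and the RING partner did not pass. Tceb2, elongin B, had 871 and 1431 FPKM in the knockout and 737 and 588 FPKM in the wild type (limma adjusted p = 0.189). Cops4, a subunit of the signalosome that removes NEDD8, had 271 and 162 FPKM in the knockout and 280 and 238 FPKM in the wild type (limma adjusted p = 0.584). The groups of Tceb2 were apart with the knockout higher, and those of Cops4 overlapped. Rbx1, the RING protein of most cullins, and Skp1a, the F-box adaptor, are given for their role, outside the rule for naming genes. Rbx1 had 31.2 and 43.3 FPKM in the knockout and 20.9 and 15.6 FPKM in the wild type (limma adjusted p = 0.117). Skp1a had 124 and 129.7 FPKM in the knockout and 152 and 154 FPKM in the wild type (limma adjusted p = 0.519). Rbx1 was higher and Skp1a lower in each knockout library, without passing.

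Among 39 genes listed as kelch, BTB and F-box genes under other names, 23 were tested, 1 fell and 0 rose, with a median of -0.17. The list also held Zer1, which was tested, and Zyg11b, which was not, and these are not of the named classes. Over all genes tested 13.4% fell and 1.95% rose, so these counts are no result about the list. The gene that fell was Skp2, the F-box receptor for the cell cycle inhibitor p27, at 0.0858 and 0 FPKM in the knockout and 7.05 and 5.27 FPKM in the wild type (log2 change -2.77, SE 0.34, limma adjusted p = 0.00387). The most abundant were Kctd13, a CUL3 adaptor, with 96.9 and 29.1 FPKM in the knockout and 57.1 and 65.9 FPKM in the wild type, and Kctd19, a meiotic gene in mice, with 88.0 and 33.9 FPKM in the knockout and 50.9 and 104 FPKM in the wild type (limma adjusted p = 0.842 and 0.659). Both overlapped.

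Of 42 receptors that join DDB1 or carry a SOCS box without being Asb genes, 32 were tested, 2 fell and 0 rose, with a median of -0.51. Beside the 13.4% lower and 1.95% higher over all genes tested, so few calls are no result about the list. Spsb1, a SOCS box receptor for inducible nitric oxide synthase, had 0.506 and 0.0192 FPKM in the knockout and 11.5 and 11.1 FPKM in the wild type (log2 change -3.31, SE 0.37, limma adjusted p = 0.00292). Dcaf13, a DDB1 receptor also needed for ribosomal RNA processing, had 2.64 and 3.19 FPKM in the knockout and 11.2 and 12.1 FPKM in the wild type (log2 change -1.69, SE 0.34, limma adjusted p = 0.025). In both genes the groups were apart. The abundant relatives did not pass: Spsb3 had 175 and 92.1 FPKM in the knockout and 44.2 and 69.6 FPKM in the wild type (limma adjusted p = 0.125), with both knockout values above both wild-type values. It passed as higher after median-ratio scaling (0.047), after quantile normalization (0.0481) and without knockout library 2 (2.18e-05). Dcaf7 had 108 and 48.8 FPKM in the knockout and 59.7 and 64.0 FPKM in the wild type (limma adjusted p = 0.749). Of the calls in these 2 lists, that of Skp2 held without wild-type library 1 (limma adjusted p = 0.047) and ended without wild-type library 2 (0.0653), and those of Spsb1 and Dcaf13 ended without either. With no filter all 3 ended (0.0623 for Skp2, 0.054 for Spsb1 and 0.0537 for Dcaf13), and that of Dcaf13 also ended after quantile normalization and GC correction.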

How the data were processed

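RNA libraries of sorted haploid cells from 2 Sox30 knockout and 2 wild-type samples were analysed. The authors deposited FPKM per gene. Per the submitters' processing notes, the tools were Cuffdiff, Cufflinks 2.0.2 and TopHat2 2.0.6 and the genome build mm9, with no role stated for any of them. Each table had 23021 entries for 22552 symbols, of which 259 symbols stood on several entries and were summed. The 9124 genes with a mean of 1 FPKM or more over the 4 libraries were tested on log2(FPKM + 1), a scale that understates changes of low genes. The test was limma 3.58.1 in R 4.3.3 with genotype as the only term and a trend of variance on mean (2 residual and 3.84 prior degrees of freedom), two-sided, with Benjamini-Hochberg adjustment and a threshold of 0.05. Only FPKM were used, so depth is unknown and no counting intervals are given.

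The genes and lists were chosen with earlier results of these data known. Named genes were Sox30, Klhl10, Cul3, Asb9 and every cullin. From each family came those past the threshold (up to 8) and the 4 of highest wild-type mean, and from each list up to 5 past the threshold and the 2 of highest wild-type mean. Alternatives were pseudocounts of 0.1 and 5, no filter, a mean of 5 FPKM, median-ratio scaling, quantile normalization, leaving out each library, a replicate block and no mean-variance trend. A lowess correction on transcript GC content (span 0.3, GC content from GENCODE M21) and a crossed pairing were added after seeing the data. A genotype left with 1 library was assumed to vary like the other. Chromosomes and promoter windows came from RefSeq (GRCm38.p6).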

Additional observations from a re-analysis of the deposited data

How the results depend on the processing

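The 9 genes lower and 1 higher among 81 tested became 4 and 0 when low values were not filtered. At a pseudocount of 0.1, in the replicate block fit and after the GC correction, 0 were higher, and after quantile normalization 2 were. The median log2 change of -0.52 was -0.79 with a pseudocount of 0.1 and -0.15 after quantile normalization. Leaving out 1 library at a time gave 0 to 33 lower, 0 to 6 higher and a median from -0.76 to -0.34. With the library number as a replicate block 8 genes were lower, and Fbxo8 and Klhdc9 lost their calls, as did Nedd8, Nae1 and Dcaf13 in the lists. The labels do not pair the libraries, and deviations of same-numbered libraries correlated at -0.20 across genes. A crossed pairing, chosen after seeing the data as was the GC correction, gave 11 lower and 1 higher.

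In the machinery list (3 lower, 1 higher), 1 was lower after quantile normalization and after the GC correction, and 0 were higher with a pseudocount of 0.1, no filter, median-ratio scaling, the replicate block or no mean-variance trend, against 2 after quantile normalization. Leaving out 1 library gave 0 to 10 lower and 0 to 4 higher. In the list of kelch, BTB and F-box genes under other names (1 lower, 0 higher), 2 were lower with a pseudocount of 5, median-ratio scaling, no mean-variance trend or the GC correction, 4 with the crossed pairing and 0 with no filter or a mean of 5 FPKM; 2 were higher after quantile normalization, and leaving out 1 library gave 0 to 11 lower and 0 to 4 higher. In the DDB1 and SOCS box list (2 lower, 0 higher), 0 were lower with no filter, and 1 after quantile normalization and with the replicate block, and 1 was higher after median-ratio scaling, quantile normalization and the crossed pairing; leaving out 1 library gave 0 to 16 lower and 0 to 1 higher. The cause of these moves was not tested. None of the alternatives reversed the direction of a gene that passed. Depth is unknown, and 2 libraries a genotype limit what the test can call.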
